A study of Mus musculus with 9 samples.

Results

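The circadian clock genes described here were 10 listed genes of the mouse: Per1, Per2, Per3, Nr1d1, Nr1d2, Dbp, Tef, Hlf, Ciart and Arntl. They were taken by symbol from a count table of 52550 genes, and all 10 were found once each and were among the 18699 genes with enough counts to be tested. RNA of the spinal cord was sequenced in 9 adult female C57BL/6N mice on day 7 after surgery, with 3 mice in each of 3 groups. Sham mice had a laminectomy only. SCI mice had a contusion of the thoracic cord and received the vehicle DMSO, and SCI+FIPI mice had the same contusion and received FIPI, an inhibitor of phospholipase D (PLD), given daily from the day of injury. The tissue was a piece of whole cord around the injury epicenter, so that fewer cells of a type and less RNA per cell cannot be told apart. The mice were housed under a light and dark cycle, and the hour at which each cord was taken is not given in the sources used here. A difference in hour between the groups therefore cannot be told apart from injury or FIPI.

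The clock is a loop of transcription factors that runs in most cells. BMAL1, the product of Arntl, pairs with CLOCK or NPAS2 and switches on genes that carry E-boxes, among them the Per genes, Nr1d1, Nr1d2, Dbp and Ciart. PER proteins, together with CRY proteins, then block BMAL1, while REV-ERBα and REV-ERBβ, the products of Nr1d1 and Nr1d2, repress Arntl and other genes through RORE sites. DBP, TEF and HLF activate genes with D-boxes, and NFIL3 competes for the same sites. In many tissues the transcripts of Dbp, Nr1d1 and Ciart peak at a time of day when Arntl is low, and Per1 also responds to glucocorticoids and other acute signals.

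The sequences around the start sites of the members were searched for such elements and for the cAMP response element, and not every member held one. The promoter sequences came from RefSeq on GRCm38.p6, with 250 bases before the start in each window of 300 bases, and 9 of the 10 members had at least 1 window. No window was found for Per2. Both strands were searched for the E-box CACGTG, the E-prime-box CACGTT, the D-box TTANGTAA, the cAMP response element TGACGTCA and the RORE. Some of these motifs read the same on both strands, and no overlap between motifs was excluded. Positions are counted from the RefSeq start site to the first base of the motif, and capitals mark the motif. The upstream sequences of Ciart, on the minus strand at chr3:95882252-95882478, and of Per3, on the minus strand at chr4:151044666-151044915, are shown because each held a motif more than once.
Ciart: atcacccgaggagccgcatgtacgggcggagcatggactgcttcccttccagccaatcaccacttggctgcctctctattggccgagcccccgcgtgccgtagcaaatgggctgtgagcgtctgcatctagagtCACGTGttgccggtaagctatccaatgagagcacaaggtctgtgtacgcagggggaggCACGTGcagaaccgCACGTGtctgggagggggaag
Per3: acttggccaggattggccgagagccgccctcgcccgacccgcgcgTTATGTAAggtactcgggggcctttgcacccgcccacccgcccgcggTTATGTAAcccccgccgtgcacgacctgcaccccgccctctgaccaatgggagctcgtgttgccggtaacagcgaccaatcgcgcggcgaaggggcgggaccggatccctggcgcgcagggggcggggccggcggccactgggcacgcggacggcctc

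Ciart held 3 E-boxes, at -116, -58 and -44, and Per3 held 2 D-boxes, at -205 and -158. The E-box occurred in 7.15% of the 32851 promoter windows of the table and the D-box in 2.32%. Shorter stretches are shown for the members with a single motif in a window. They are the E-box of Per1 at -166 (chr11:69098771-69098800, plus strand), the E-box of Tef at -138 (chr15:81811264-81811293, plus strand), the E-prime-box of Nr1d1 at -28 (chr11:98775388-98775417, minus strand), the cAMP response element of Hlf at -9 (chr11:90390908-90390937, minus strand) and the RORE of Arntl at 26 (chr7:113207528-113207556, plus strand).
Per1: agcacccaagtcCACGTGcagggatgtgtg
Tef: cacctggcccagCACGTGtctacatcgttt
Nr1d1: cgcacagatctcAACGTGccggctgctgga
Hlf: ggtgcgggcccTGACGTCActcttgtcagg
Arntl: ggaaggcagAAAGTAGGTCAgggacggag

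The E-prime-box of Nr1d1 lies on the other strand and is therefore read here as its reverse complement. The RORE of Arntl lies inside an annotated exon, after the start site. The E-prime-box occurred in 4.68% of all windows, the cAMP response element in 1.79% and the RORE in 0.384%. Tef had a second window whose E-box lies in an annotated exon. Per1 and Arntl each had a second window, from another start site, with no motif. No motif was found in the windows of Dbp and Nr1d2. These matches describe letters in short windows and are not measurements of binding.

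Levels are given as CPM, the counts of a gene scaled to a common library total with TMM factors. Total counts per mouse lay between 20806000 and 24582377. The lowest count of any member was 167, for Ciart in an SCI mouse, and the highest was 4721, for Tef in an SCI+FIPI mouse. The defining markers of neurons, astrocytes, oligodendrocytes and microglia were present in every mouse, with none of the 24 at 0. Differences are log2 fold changes with their standard errors from edgeR's quasi-likelihood model, fitted to all 9 mice. A gene was said to pass where its log2 fold change was at least 0.5 in size and its adjusted p-value was under 0.05. The 10 members were chosen with their values in these mice known, and the 3 comparisons share their mice. Their values are therefore given as a description, without p-values. Only the other clock genes are tested, and their list was also drawn up with earlier results of these data known.

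**Figure D1:**
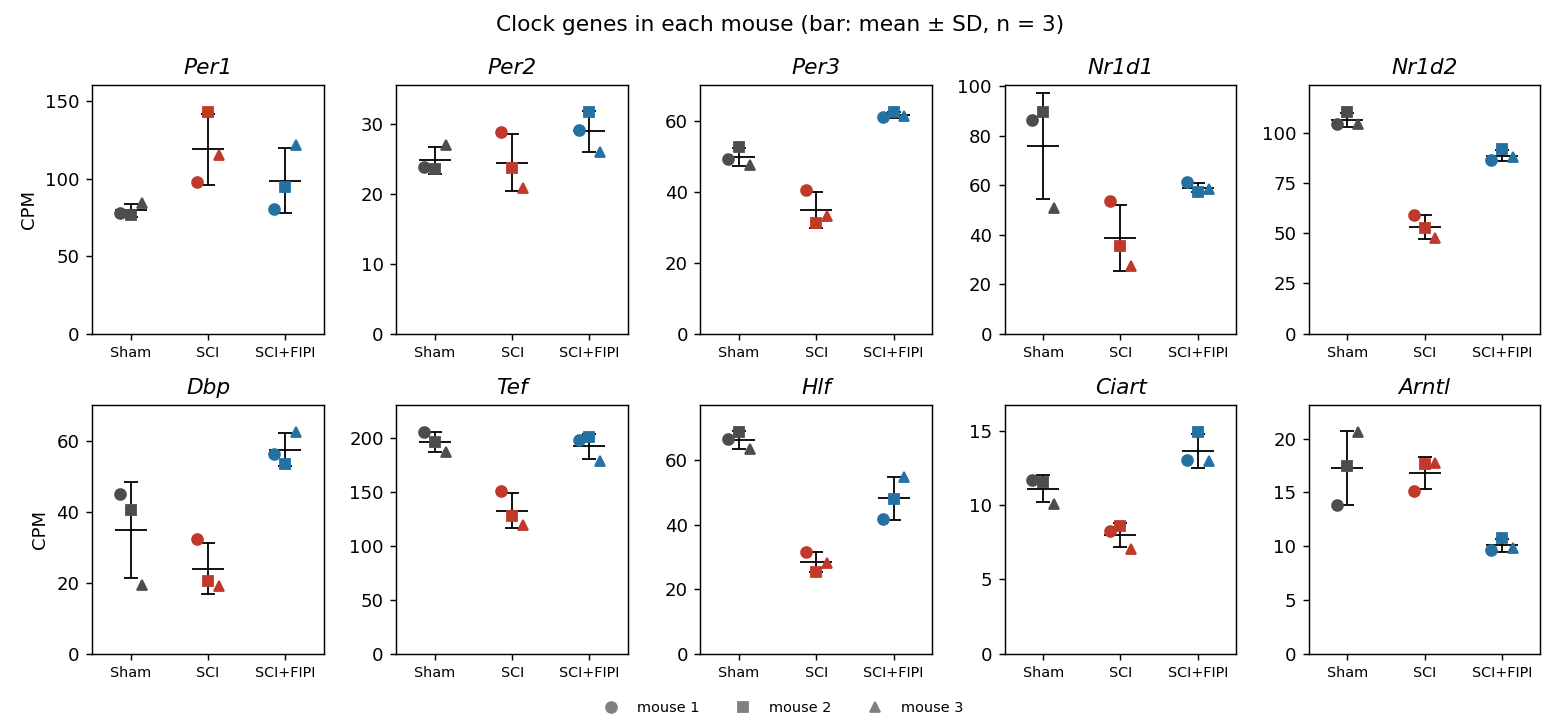
CPM (linear axis from 0) of the 10 clock genes in each of the 9 mice, with a panel for each gene; points are mice, with the replicate number as the symbol, and bars are the mean ± SD of 3 mice. Per3, Dbp and Ciart were higher in every SCI+FIPI mouse than in any other mouse, and Arntl was lower.

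Dbp, a PAR bZIP factor switched on through E-boxes, is a marker of clock output. It stood at 45, 40.6 and 19.5 CPM in the Sham mice, at 32.4, 20.6 and 19.2 CPM in the SCI mice, and at 56.55, 53.7 and 62.8 CPM in the SCI+FIPI mice. The Sham and SCI mice overlapped, while every SCI+FIPI mouse lay above the other 6. Its log2 fold change was 1.26 (SE 0.344) for SCI+FIPI against SCI, a 2.40-fold higher level, -0.54 (SE 0.348) for SCI against Sham and 0.72 (SE 0.337) for SCI+FIPI against Sham, and none of the 3 passed. Of the exonic bases of Dbp, 18% lie opposite exons of Sphk2, and whether counting used the strand is not given in the sources used here. Sphk2 had a log2 fold change of -0.125 (SE 0.0683) for SCI+FIPI against SCI and 0.48 for SCI against Sham, with the sign opposite to that of Dbp, and 0.35 for SCI+FIPI against Sham, with the same sign.

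Tef and Hlf, the other PAR bZIP factors, were lower in all SCI mice than in any Sham mouse. Tef was at 205, 196 and 186.5 CPM in the Sham mice, at 150.3, 128 and 119 CPM in the SCI mice, and at 197, 200.1 and 179 CPM in the SCI+FIPI mice. The SCI+FIPI mice overlapped the Sham mice and were separate from the SCI mice, with log2 fold changes of 0.54 (SE 0.0808) against SCI and -0.03 (SE 0.0803) against Sham. Hlf was at 66.4, 68.8 and 63.3 CPM in the Sham mice, at 31.7, 25.35 and 28.2 CPM in the SCI mice, and at 41.7, 47.9 and 54.8 CPM in the SCI+FIPI mice. The 3 groups of Hlf did not overlap. Its log2 fold change of -1.22 (SE 0.0998) for SCI against Sham was the largest among the members in that comparison. In SCI+FIPI mice it was 0.76 (SE 0.100) above SCI and -0.46 (SE 0.0969) against Sham.

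The nuclear receptor genes Nr1d1 and Nr1d2, whose products repress Arntl, were also lower in SCI than in Sham. Nr1d2 was at 105, 111 and 105 CPM in the Sham mice, at 59.4, 52.6 and 47.8 CPM in the SCI mice, and at 86.4, 92.0 and 88.0 CPM in the SCI+FIPI mice. The 3 groups were separate, in the order Sham, SCI+FIPI and SCI. Nr1d2 had a log2 fold change of -1.0 (SE 0.0723) for SCI against Sham and of 0.74 (SE 0.0723) for SCI+FIPI against SCI. Nr1d1 was at 86.4, 89.8 and 51.0 CPM in the Sham mice, at 53.4, 35.3 and 27.4 CPM in the SCI mice, and at 61.2, 57.4 and 58.6 CPM in the SCI+FIPI mice. The lowest Sham mouse lay below the highest SCI mouse, and the SCI+FIPI mice lay above all SCI mice within a narrow range. The log2 fold change of Nr1d1 was -0.97 (SE 0.302) for SCI against Sham, which passed, and 0.61 (SE 0.302) for SCI+FIPI against SCI, which did not. Of the exonic bases of Nr1d1, 8.55% lie opposite exons of Thra, which had 5268 to 6087 counts per mouse against 650 to 2079 for Nr1d1. The log2 fold change of Thra was -0.20 and 0.115 in the same comparisons, with the same sign as that of Nr1d1. The part of this overlap in the counts of Nr1d1 was not tested. Of the 50-base stretches of Nr1d2, 6% occur in another annotated gene.

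The Per genes, which encode the repressors that pair with CRY proteins, did not move together. Per3 was at 49.2, 52.65 and 47.5 CPM in the Sham mice, at 40.5, 31.05 and 33.0 CPM in the SCI mice, and at 61.0, 62.6 and 61.3 CPM under FIPI. The groups were separate, with the SCI+FIPI mice highest. Its log2 fold change was 0.82 (SE 0.0853) for SCI+FIPI against SCI, -0.515 (SE 0.0857) for SCI against Sham and 0.31 (SE 0.0839) for SCI+FIPI against Sham. Per1 was at 78.1, 76.45 and 84.1 CPM in the Sham mice, at 98.0, 143 and 115 CPM in the SCI mice, and at 80.3, 94.6 and 121.5 CPM in the SCI+FIPI mice. Per1 was the only member higher in every SCI mouse than in every Sham mouse, with a log2 fold change of 0.58 (SE 0.179), and its SCI+FIPI mice overlapped both other groups. Per2 was at 23.8, 23.5 and 27.0 CPM in the Sham mice, at 28.8, 23.7 and 20.8 CPM in the SCI mice, and at 29.1, 31.75 and 26.0 CPM in the SCI+FIPI mice. Each pair of groups overlapped for Per2, and its log2 fold changes lay between -0.02 and 0.24. Within a mouse, the log2 ratio of Per2 to Per1 ranged from -1.71 to -1.64 in Sham, from -2.59 to -1.76 in SCI and from -2.22 to -1.46 in SCI+FIPI.

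Ciart encodes CHRONO, a repressor of BMAL1. It was at 11.7, 11.5 and 10.1 CPM in the Sham mice, at 8.26, 8.60 and 7.045 CPM in the SCI mice, and at 13, 14.9 and 13 CPM in the SCI+FIPI mice. The groups did not overlap, with the SCI mice lowest and the SCI+FIPI mice highest. For Ciart the log2 fold change was 0.77 (SE 0.116) for SCI+FIPI against SCI, -0.48 (SE 0.117) for SCI against Sham and 0.30 (SE 0.114) for SCI+FIPI against Sham. Of the 50-base stretches of Ciart, 15.1% occur in Gm9176, which had at most 2 counts in any mouse.

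Arntl, which encodes the activator BMAL1, differed in the other direction under FIPI. It was at 13.8, 17.4 and 20.6 CPM in the Sham mice, at 15.1, 17.7 and 17.7 CPM in the SCI mice, and at 9.61, 10.8 and 9.815 CPM in the SCI+FIPI mice. The Sham and SCI mice overlapped, and all SCI+FIPI mice lay below them. The log2 fold change was -0.04 (SE 0.128) for SCI against Sham, -0.74 (SE 0.132) for SCI+FIPI against SCI and -0.78 (SE 0.133) for SCI+FIPI against Sham.

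**Figure D2:**
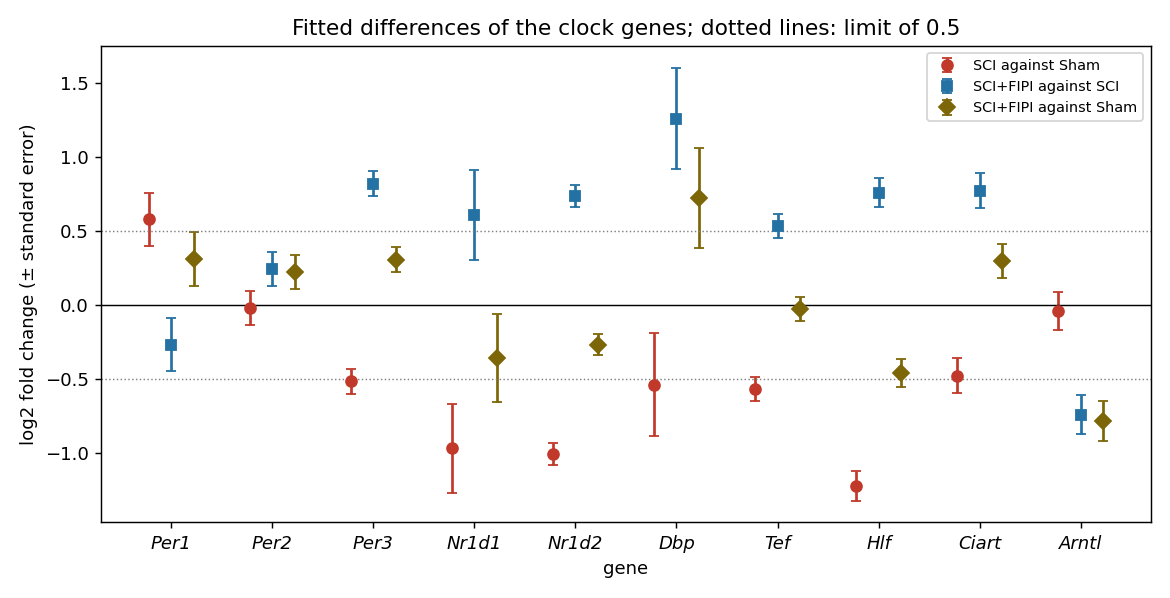
Log2 fold changes (points) with standard errors (bars) of the 10 clock genes in the 3 comparisons; dotted lines mark the limit of 0.5. Against SCI, Per3, Nr1d1, Nr1d2, Dbp, Tef, Hlf and Ciart lay above 0.5 and Arntl below -0.5.

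In SCI against Sham, 1 member passed upward (Per1) and 5 passed downward (Per3, Nr1d1, Nr1d2, Tef and Hlf). Of all genes tested, 24.4% passed upward and 22.5% downward in this comparison. The groups did not overlap for 6 of 10 members and for 70.5% of all genes. The median size of the log2 fold change was 0.55 for the members and 0.55 for all genes, and their median with sign was -0.53 against -0.003. The count rested on single mice: it was 2 without SCI mouse 3, 3 without Sham mouse 2 and 8 without Sham mouse 3. Leaving out each of the 6 mice in turn, Nr1d2 and Hlf passed all 6 times, Tef 5 times, Per3 3 times, and Per1 and Nr1d1 2 times each. The 6 neuron markers were all lower in SCI, with a summed level of 978 to 1100 FPKM (counts scaled by exonic length and library total) in Sham and 346 to 454 in SCI, and the 6 markers of microglia and macrophages were all higher, at 115 to 199 and 3670 to 4560 FPKM. The 4 fibroblast markers were all higher, at 33.9 to 85.5 FPKM in Sham and 853 to 1180 in SCI. Of 4 endothelium markers 3 were higher, of 6 astrocyte markers 3 were higher and 1 lower, and of 6 oligodendrocyte markers 3 were lower. No marker of Schwann cells, skeletal muscle, bone and marrow or erythroid cells passed. None of the markers was at 0. The part of these cell types, and of the hour of collection, in the values of the clock genes was not tested.

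In SCI+FIPI against SCI, 5 members passed upward (Per3, Nr1d2, Tef, Hlf and Ciart) and 1 downward (Arntl). Of all genes tested, 2.36% passed upward and 0.695% downward. The groups did not overlap for 8 of 10 members, 7 of them higher under FIPI, and for 30.2% of all genes. The median size of the log2 fold change was 0.74 for the members and 0.16 for all genes. As the members were chosen on this comparison, nothing is read from these counts. The count was 5 without SCI mouse 3, where Tef had a log2 fold change of 0.47, and 6 without any other single mouse of the comparison. Of the neuron markers, 4 of 6 passed upward, with a summed level of 346 to 454 FPKM in SCI and 533 to 619 FPKM in SCI+FIPI. The microglia and macrophage markers summed to 3670 to 4560 FPKM in SCI and 2680 to 3610 in SCI+FIPI, and 0 of 6 passed. Of 5 bone and marrow markers 1 passed upward, with sums of 2.53 to 3.12 FPKM in SCI and of 3.72, 10.6 and 16.9 FPKM in the SCI+FIPI mice. The part of these cells, and of the hour of collection, was not tested.

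In SCI+FIPI against Sham, 0 members passed upward and 1 passed downward (Arntl). Of all genes tested, 21.2% passed upward and 17.0% downward. The groups did not overlap for 6 of 10 members and for 66.3% of all genes. Of these 6, Per3, Dbp and Ciart were higher and Nr1d2, Hlf and Arntl lower in SCI+FIPI than in Sham. Without SCI+FIPI mouse 3 the count was 2, as Hlf then passed at -0.56. Compared with Sham, 5 of 6 neuron markers and 3 of 6 oligodendrocyte markers were lower. Higher were all 6 microglia and macrophage markers, all 4 fibroblast markers, 3 of 4 endothelium markers and 2 of 5 bone and marrow markers. Of 6 astrocyte markers 2 were higher and 1 lower, and of 3 Schwann cell markers 1 was higher. The part of these cells, and of the hour of collection, was not tested.

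Levels relative to Arntl were read as the log2 ratio of CPM within a mouse, which does not depend on library size. No rhythm or phase was measured, so the ratio is a comparison of levels. Because gene length enters the ratio, it is compared only between mice. The ratio of Dbp to Arntl was 1.70, 1.22 and -0.08 in the Sham mice, 1.10, 0.22 and 0.115 in the SCI mice, and 2.55, 2.31 and 2.67 in the SCI+FIPI mice. All SCI+FIPI mice lay above the other 6, and the Sham and SCI mice overlapped. The means were 0.945 ± 0.921, 0.48 ± 0.538 and 2.51 ± 0.182 (SD, n = 3 each). For Per3 to Arntl the ratio ranged from 1.2 to 1.83 in Sham, from 0.81 to 1.42 in SCI and from 2.53 to 2.655 in SCI+FIPI. For Ciart to Arntl it ranged from -1.03 to -0.24, from -1.32 to -0.86 and from 0.40 to 0.47. In both, too, the SCI+FIPI mice stood above all others. For Nr1d1 to Arntl the ranges were 1.30 to 2.64, 0.63 to 1.82 and 2.40 to 2.66, so that the SCI+FIPI mice overlapped the Sham mice. These ratios restate the member values on another scale and were not tested. The hour of collection could not be taken into account.

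**Figure D3:**
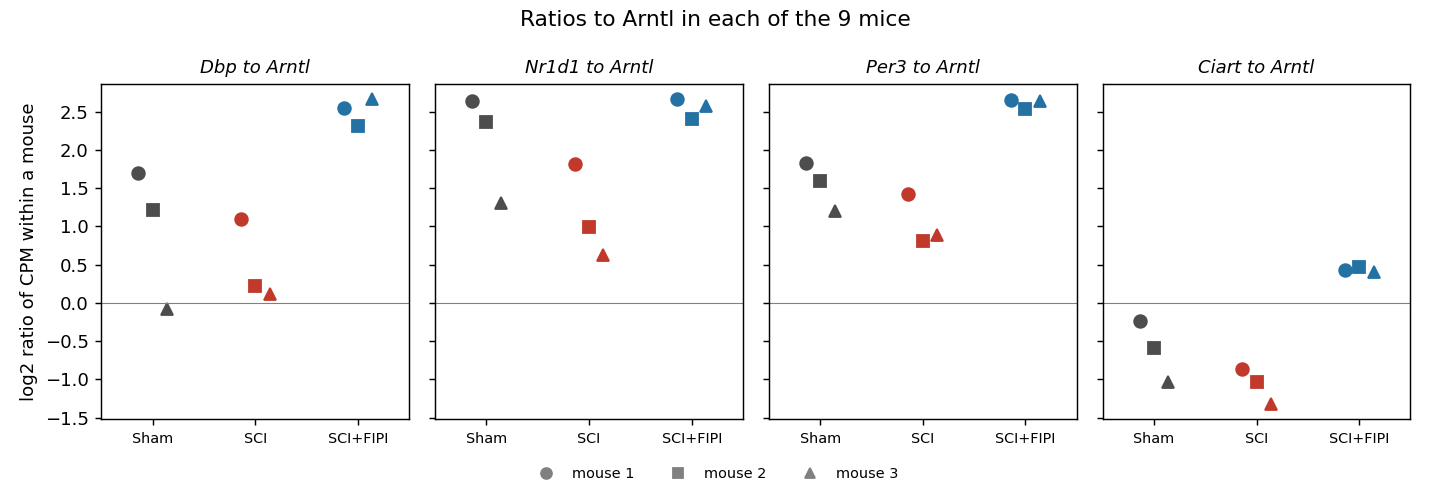
Log2 ratio of CPM within each of the 9 mice, for 4 clock genes over Arntl; points are mice, with the replicate number as the symbol. The Dbp to Arntl ratio lay between 2.31 and 2.67 in SCI+FIPI and at or below 1.70 in all other mice, and Sham mouse 3 was at -0.08.

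Mice of the same group also differed, and whether they were taken at different hours is not given in the sources used here. Sham mouse 3 had less Dbp and Nr1d1 and more Arntl than the other Sham mice, with deviations from its group mean of -0.75, -0.53 and 0.27 on the log2 scale. SCI mouse 1 deviated the other way, by 0.47 for Dbp, 0.52 for Nr1d1 and -0.15 for Arntl. In the SCI+FIPI mice the deviations of the same genes from their mean were at most 0.125 in size. The coefficient of variation of Dbp was 38.9% in Sham, 30% in SCI and 8.02% in SCI+FIPI, and that of Per3 was 5.25%, 14.3% and 1.35%. Per1, at 5.07%, 19.2% and 21.2%, and Hlf, at 4.13%, 11.1% and 13.7%, instead varied most in SCI+FIPI. The median over the members was 6.49%, 13.3% and 7.07%, against 6.82%, 7.46% and 6.24% over all 14553 genes of at least moderate level. In SCI all 10 members lay above that median of all genes, against 5 of 10 in each of the other groups.

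Over the 9 mice, with the group means taken out, Dbp correlated with Nr1d1 at r = 0.93 and with Arntl at -0.88. The points share their libraries, and most of the range comes from Sham mouse 3, Sham mouse 1 and SCI mouse 1, so that r is given as a description. Per3 correlated with Nr1d2 at 0.78 and with Dbp at 0.65, which were ranks 351 and 1008 from the highest of 14552 genes. Per1 correlated with Dbp at -0.32 and with Tef at -0.66, and Hlf with Dbp at 0.50. Among 14552 genes ranked by their correlation with Dbp, Nr1d1 had rank 13 from the highest and Hlf rank 2115. Arntl correlated with Cry1, which encodes a repressor of BMAL1, at 0.97, the fourth highest of 14552 genes by the same measure. Arntl correlated with Nfil3 at 0.85, rank 149 from the highest. Cry1 correlated with Dbp at -0.93, rank 34 from the lowest, and Arntl had rank 103 from the lowest for Dbp. Other pairs of members were weak, such as Dbp with Per2 at 0.03, Per3 with Ciart at 0.25 and Arntl with Nr1d2 at -0.24. The other genes most like Arntl were Platr25 (0.98), Sfpq (0.97), Tacc1 (0.97) and Dubr (0.96). Those most like Dbp were Stk11ip (0.98), 4933439C10Rik (0.97), Mrps11 (0.97), Ppcdc (0.96) and Aptx (0.96). Those most like Per3 were Sst, 4930426D05Rik, Cck, Gm2694 and Rsph10b, all at 0.98.

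**Figure D4:**
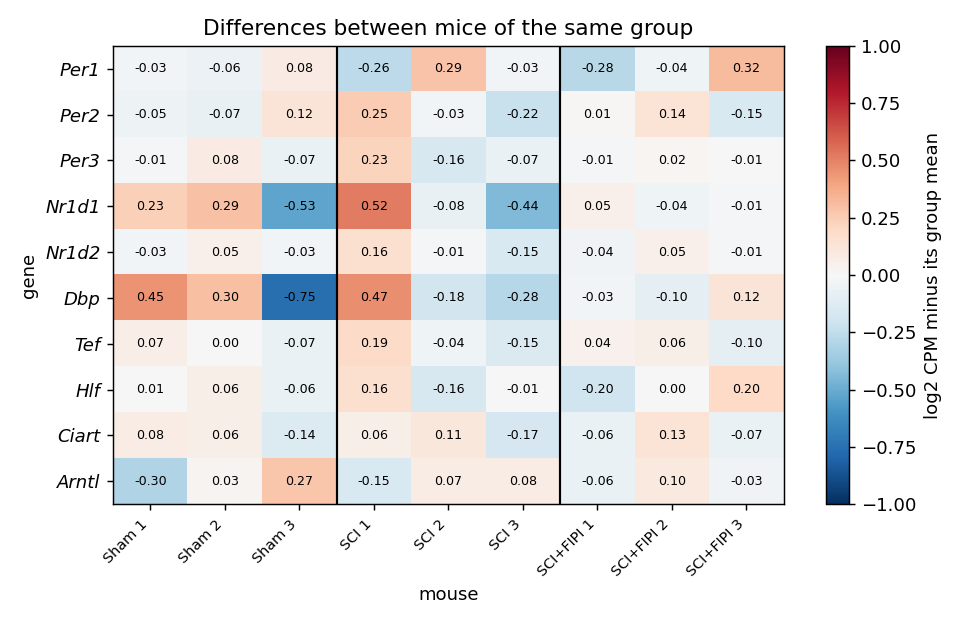
Deviation of log2 CPM from the mean of the mouse's own group for the 10 clock genes (rows) in the 9 mice (columns), with the value in each cell and red above and blue below 0. Dbp and Nr1d1 were low and Arntl high in Sham mouse 3, at -0.75, -0.53 and 0.27, and the SCI+FIPI mice differed little for these genes.

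Per length, the order of the members also differed between groups. By mean FPKM, Tef (25.1), Nr1d1 (24.8) and Nr1d2 (19.9) were highest in Sham, and Per1 (14.2), Dbp (11.8), Hlf (9.98), Per3 (5.22), Ciart (4.95), Per2 (4.26) and Arntl (2.31) followed. Neighbours in this order were separate only between Nr1d2 and Per1, Hlf and Per3, and Per2 and Arntl. In SCI, Per1 led at 20.8 FPKM, ahead of Tef at 16.6, though their mice overlapped. Dbp and Hlf, at 7.94 and 4.20 FPKM, and Ciart and Arntl, at 3.48 and 2.21, were the only neighbours that were separate there. In SCI+FIPI, Tef led at 24.5 FPKM and was separate from Dbp at 19.3, which overlapped Nr1d1 at 19.2. Arntl was the lowest member in all groups, at 1.34 FPKM in SCI+FIPI.

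The list of other clock genes held 24 genes taken for their known role, and all of them were tested. It was drawn up with earlier results of these data known and leaves out the members. Its p-values are therefore not those of an independent test. In SCI against Sham, 5 passed upward and 8 downward, together 54.2% of the list, beside 24.4% upward and 22.5% downward of all genes. The median size of the log2 fold change was 0.52 for these 24 genes and 0.55 for all genes. Nothing particular to the clock is read from that count. Of the activators that pair with BMAL1, Clock fell by 0.56 on the log2 scale (SE 0.0616, adjusted p = 1.41e-06, edgeR), while Npas2 had 0.06 and the BMAL1 relative Arntl2 -0.30, which did not pass the limit on the fold change. Of the repressors, Cry2 fell by 0.645 (adjusted p = 7.73e-06, edgeR) and Bhlhe40 and Bhlhe41, which compete for E-boxes, rose by 0.60 and 0.53. Cry1 had -0.07 (adjusted p = 0.615, edgeR). Nfil3, the repressor of D-box genes, rose from 5.99, 6.78 and 9.65 CPM in the Sham mice to 15.2, 18.7 and 17.6 CPM in the SCI mice, a log2 fold change of 1.19 (SE 0.158, adjusted p = 1.27e-05, edgeR). Rora and Rorb, whose products activate through the RORE, fell by 0.69 and 0.68. Among the genes that set the stability of PER and CRY proteins, Gsk3b, Fbxl21 and Btrc fell by 0.70, 1.25 and 0.79, and Usp2 rose by 0.755. Of the output genes, Nampt rose by 0.56 and Wee1 fell by 0.51. Wee1 did not pass without Sham mouse 3 (-0.435) or SCI mouse 1 (-0.445). The same shifts in cell type markers stand beside these values.

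In SCI+FIPI against SCI, 1 of the other clock genes passed upward and 2 downward, beside 2.36% and 0.695% of all genes. The median size of the log2 fold change was 0.09 for these 24 genes and 0.16 for all genes. As the members had been set aside from this list, nothing is read from that difference. Npas2 was at 10.9, 15.4 and 13.9 CPM in the SCI mice and at 6.71, 8.18 and 8.72 CPM under FIPI, and fell by 0.77 (SE 0.136, adjusted p = 0.00565, edgeR). Its Sham mice were at 12.7, 12.6 and 13.4 CPM, so that the SCI+FIPI mice lay below the other 6, as they did for Arntl. Nfil3 was at 9.57, 10.6 and 12 CPM under FIPI and fell by 0.68 against SCI (SE 0.153, adjusted p = 0.0164, edgeR). Fbxl21, which encodes a ligase subunit acting on CRY proteins, was at 3.06, 2.48 and 2.74 CPM in the SCI mice and at 4.83, 3.98 and 4.32 CPM under FIPI, and rose by 0.66 (SE 0.160, adjusted p = 0.0202, edgeR). Without SCI mouse 2, SCI mouse 3, SCI+FIPI mouse 1 or SCI+FIPI mouse 2, neither Nfil3 nor Fbxl21 passed, with adjusted p-values from edgeR between 0.0538 and 0.0821, whereas Npas2 passed without any single mouse. Cry2 had 0.39 (adjusted p = 0.0121, edgeR) and Nampt -0.21 (adjusted p = 0.0338, edgeR), both under the limit on the fold change, and Cry2 reached 0.50 and passed without SCI mouse 1. The log2 fold change of Cry1 was 0.03 (95% interval -0.22 to 0.28), that of Clock -0.05 (-0.185 to 0.08) and that of Bhlhe40 -0.02 (-0.15 to 0.11).

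In SCI+FIPI against Sham, 3 of the 24 passed upward and 7 downward, beside 21.2% and 17.0% of all genes. Bhlhe40, Usp2 and Nfil3 rose by 0.58, 0.76 and 0.52. Nfil3 had overlapping groups and did not pass without Sham mouse 1, Sham mouse 2 or SCI+FIPI mouse 3. Clock, Npas2, Rora, Rorb, Gsk3b, Fbxl21 and Btrc fell, by 0.51 to 0.71. Rora did not pass without Sham mouse 2 (-0.49) or SCI+FIPI mouse 3 (-0.49), nor Rorb without SCI+FIPI mouse 3 (-0.45). In this comparison Npas2 fell by 0.71 (SE 0.136, adjusted p = 0.000396, edgeR), beside -0.78 for Arntl.

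**Figure D5:**
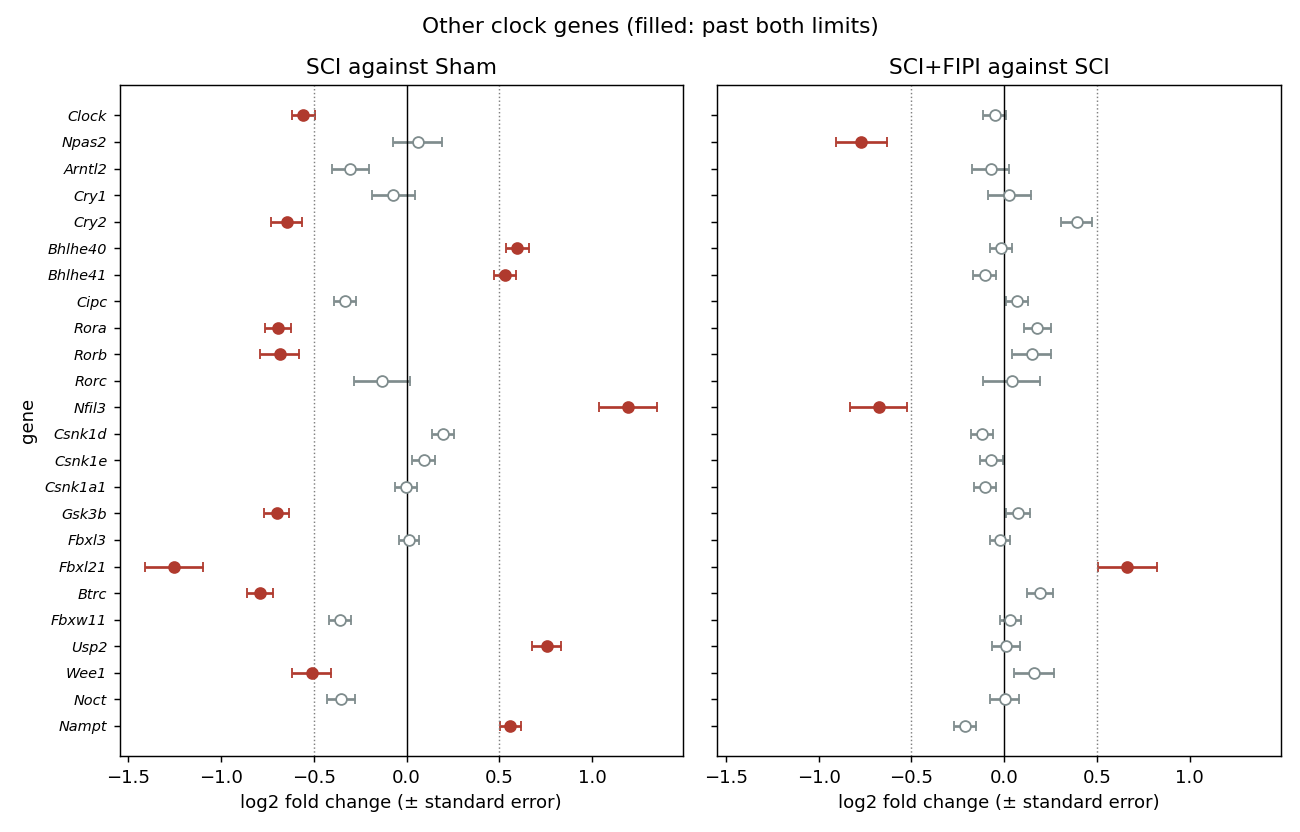
Log2 fold changes (points) with standard errors (bars) of the 24 other clock genes for SCI against Sham and for SCI+FIPI against SCI; filled points passed both limits and dotted lines mark 0.5. Against Sham 13 genes passed, and against SCI only Npas2 and Nfil3 (lower) and Fbxl21 (higher).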

How the data were processed

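The authors removed adapter and low-quality sequence, counted the reads per gene, and deposited these counts of 52550 genes in 9 mice without scaling. The submitters' processing notes name GRCm38 and R 4.2.3. The aligner, the counting program and the use of strand are not given in the sources used here. Identifiers were matched to GENCODE M21 (52403 found). The analysis used edgeR 4.0.16 in R 4.3.3 (TMM, filterByExpr by group, 1 mean per group, robust quasi-likelihood fit to all 9 mice, Benjamini-Hochberg adjustment over 18699 genes). The limits on the fold change (0.5) and the adjusted p-value (0.05) are those of the study. CPM and log2 CPM (prior count 2) were computed from the counts, and FPKM from total counts and exonic length.

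The members and the lists of other clock genes and markers were chosen with earlier results of these data known. Genes named are all members, all other clock genes tested and the 5 genes most like Dbp, Per3 and Arntl (mean log2 CPM of at least 1). Alternatives tried were upper-quartile or RLE factors, no filter, a filter of 10 counts in every mouse, a replicate block, the 2 groups alone, DESeq2 1.42.0, limma-voom (limma 3.58.1), no limit on the fold change, and each mouse left out. The fit was tested on simulated data. Changed genes planted at all count levels were recovered at a rate just under the minimum first required, with most misses at low counts. The step was therefore changed after that outcome. Genes were also planted away from the lowest counts, though not at the levels of the members in particular. The minimum first required was replaced by a requirement on genes away from the lowest counts, and both outcomes were kept. Nothing is read from this step for genes as variable between mice as Dbp and Nr1d1.

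Mice of a group differed by more than sampling noise. Replicate numbers come from the labels and are taken to mark different animals, which the labels do not state. Figures were drawn with matplotlib 3.10.9.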

Additional observations from a re-analysis of the deposited data

How the results depend on the processing

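No result changed direction while past both limits under any alternative. For SCI against Sham, the count of members past both limits was 6, and it was 3 with no filter on low counts and 2 to 8 with each mouse left out. Over 14 alternatives for each of the 10 members, 119 of 140 values kept their side of the limits, 16 lost it (Per1, Per3, Nr1d1 and Tef) and 5 gained it (Dbp and Ciart). For SCI+FIPI against SCI, 137 of 140 kept their side. As the members were chosen on this comparison and the alternatives use the same mice, nothing is read from that count. Dbp passed there with DESeq2 and with the 2 groups alone, and Tef did not pass without SCI mouse 3. For SCI+FIPI against Sham, the count of 1 member became 2 with upper-quartile factors, 5 with no limit on the fold change and 1 to 2 with each mouse left out. The count of other clock genes for SCI+FIPI against SCI was 3, and it was 5 with no limit on the fold change and 1 to 4 with each mouse left out. For SCI+FIPI against Sham it was 10, and it was 18 with no limit on the fold change and 7 to 10 with each mouse left out. Mice with the same number did not deviate together (r between -0.07 and 0.11 over 9 pairs), and with the replicate block none of the counts of 6, 13, 6, 3, 1 and 10 genes changed. The mean log2 ratio of Dbp to Arntl was 0.57 to 1.46 in Sham, 0.17 to 0.66 in SCI and 2.43 to 2.61 in SCI+FIPI with each mouse left out. With 3 mice a group, differences of genes as variable between mice as Dbp and Nr1d1 are known with low precision.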
